A study of Mus musculus with 12 samples.

Results

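The genes described are those of the white adipocyte and of lipid synthesis: adipokines, lipid droplet and fatty acid binding proteins, adipocyte transcription factors, lipases, and the enzymes and regulators of fatty acid, triglyceride and sterol synthesis. Every probe set of a mouse whole-genome expression array that was annotated to 1 of 40 listed genes was taken, whatever its values. Of the 40 genes, 38 were found, with 81 probe sets among the 45101 of the table, and 25 of the 38 had more than 1 probe set. Cfd and Plin1 were not analysed here. Of the 81 probe sets, 73 passed a filter on low signal (a value over its array's median on 3 or more of the 12 arrays) and were tested, and 8 did not. Each of the 38 genes kept at least its brightest probe set, which represents it below.

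White adipocytes store triglyceride in a single large droplet and fill the fat pad into which the mammary ducts grow. The transcription factors encoded by Pparg and Cebpa maintain that cell state, SREBP-1c (from Srebf1) and ChREBP (from Mlxipl) drive the genes that turn glucose into fatty acids, and SREBP-2 (from Srebf2) drives the sterol pathway when membrane cholesterol is low. In the mammary gland the same enzymes also work in the alveolar epithelium, which makes milk fat.

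The study compared acute progesterone responses with and without the progesterone receptor, in mammary glands of 10-week-old ovariectomized female BALB/c mice. The 4 groups were progesterone receptor null mice at 24 h, wild type mice at 24 h, progesterone receptor null mice at 8 h and wild type mice at 8 h, with 3 arrays each. RNA on an array came from 3 pooled mice. All mice, wild type included, were given 17β-estradiol (100 ng) subcutaneously for 24 h and then 17β-estradiol together with progesterone (2.5 ug) for 24 h or 8 h. No group went without progesterone, the time under 17β-estradiol differed with the time under progesterone, and the labels do not describe the null allele. A difference between times can therefore not be told apart from the longer exposure to 17β-estradiol. In whole gland RNA, fewer cells of a type and less RNA per cell cannot be told apart.

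The values were log2 signals. Pgr, the targeted gene, checked the genotype labels only in part. Its brightest probe set averaged 7.46 ± 0.35 in null and 7.82 ± 0.29 in wild type glands at 24 h, and 8.89 ± 0.29 in null and 9.94 ± 0.06 in wild type glands at 8 h (SD, n = 3 each). It was lower in null glands at 8 h (log2 difference -1.06, adjusted p = 0.012), and the difference at 24 h did not pass the test (-0.36, adjusted p = 0.45). A dimmer Pgr probe set was higher in null glands at both times (2.10 at 24 h and 1.97 at 8 h, adjusted p = 9.0e-05 and 6.0e-05), and where these probes lie relative to the null allele is not known here. Arrays of 1 group correlated between 0.965 and 0.993 over the tested probe sets, and array medians lay between 5.84 and 5.91.

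The tissue carried a strong adipocyte signal in all 4 groups. The 6 white adipocyte markers measured (Adipoq, Lep, Retn, Fabp4, Plin4 and Cidec) lay far above the array medians on every array, the lowest value of any of them being 10.87, for the leptin gene Lep in null pool 1 at 24 h. Adipoq encodes adiponectin, the hormone that fat cells secrete in the largest amount. It read 14.12, 14.06 and 14.13 in null pools 1 to 3 at 24 h, 13.96, 14.26 and 14.03 in wild type pools at 24 h, 14.19, 14.22 and 14.28 in null pools at 8 h, and 14.05, 14.07 and 14.22 in wild type pools at 8 h. The genotypes overlapped at both times.

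Several of these genes sat at the top of what the arrays read. The highest value in the table was 14.68 and the highest value of an array was never below 14.60, and 6 genes averaged above 14 over the 12 arrays, namely Adipoq, Fabp4, Lpl, Thrsp, Fasn and Scd1. Fabp4, the fatty acid binding protein of adipocytes, averaged 14.64 and its values ran from 14.60 to 14.66 over all 12 arrays. For these 6 genes the SD within groups lay between 0.019 and 0.098, against a median of 0.143 for the 38 genes and 0.138 for all genes tested. Dimmer probe sets of the same genes varied more: a Fabp4 probe set (1424155_at) ran from 11.85 to 12.51, and a second Scd1 probe set (1415965_at) from 11.57 to 12.57. Values this close to the ceiling may understate differences, so dimmer probe sets are given beside them where a gene has any.

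**Figure D1:**
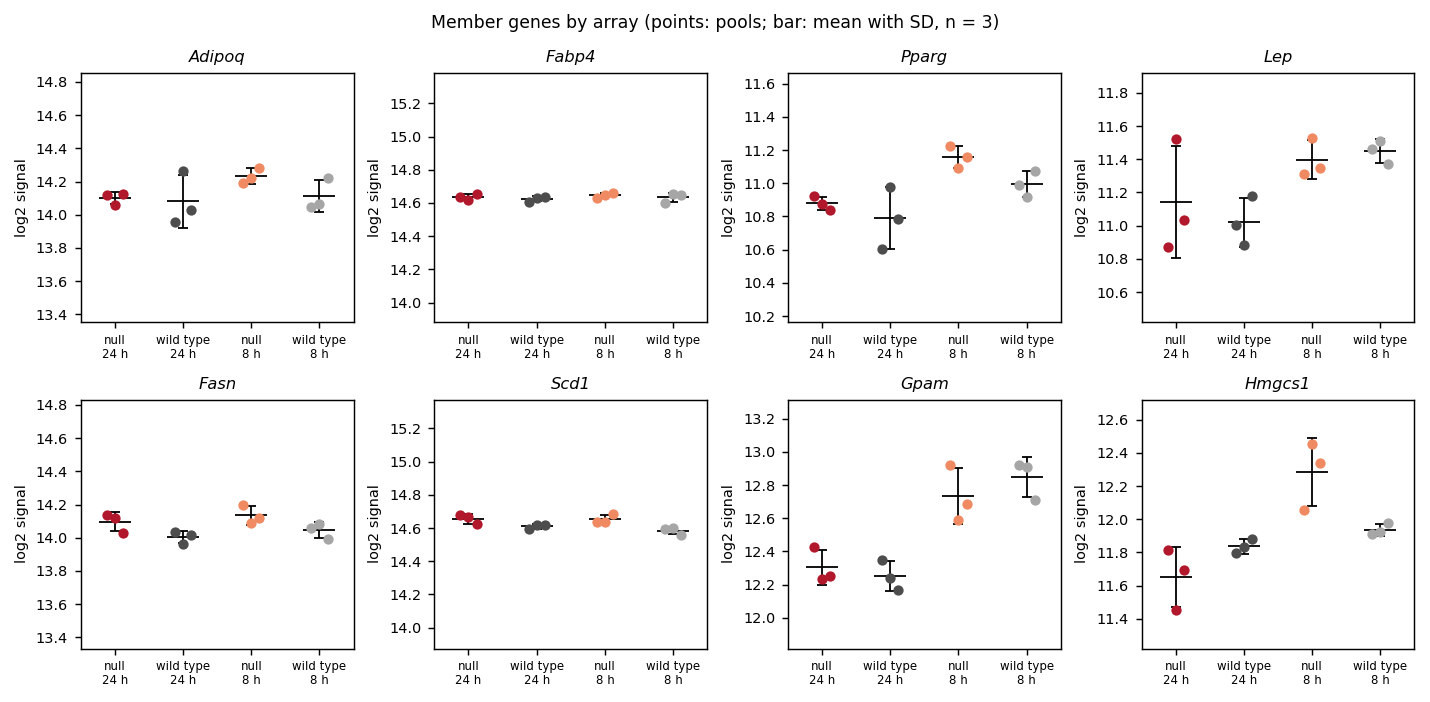
Log2 signal of the brightest probe set of selected genes on each of the 12 arrays, by group, with group means and SD as bars (3 arrays per group; every panel spans the same number of log2 units). Gpam separates by time in both genotypes, Hmgcs1 is highest in the 3 null pools at 8 h, and Fabp4 and Scd1 hardly move at 14.6.

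At 24 h no difference between receptor null and wild type glands passed the test for any of these genes. None of the 38 genes was called at an adjusted p below 0.05 (limma, Benjamini-Hochberg over all 23709 probe sets tested), where 1.3% of the 12002 genes tested were called, and 3 had an unadjusted p below 0.05. None of the 73 probe sets was called either, where 1.11% of all probe sets tested were. The differences, null minus wild type, had a median of 0.06 on the log2 scale (-0.01 over all genes tested) and ran from -0.53 for Idi1 to 0.48 for Lpin1, with 27 of 38 positive. A p that misses the threshold does not show equality, and the intervals say how much room was left: for 31 of the 38 genes the 95% interval lay within a 1.5-fold difference either way, and for 1 (Idi1) it reached 2-fold. These are the brightest probe sets, 6 of them near the ceiling. Over all 73 probe sets, 50 intervals lay within 1.5-fold and 5 reached 2-fold, and the lowest difference was -2.56, for a dimmer Scd2 probe set. In 5 genes the groups did not overlap, each with null above wild type (Acaca, Dgat2, Elovl6, Lpin1 and Scd1), against 15.9% of all genes tested in either direction. Of the 12002 genes tested, 678 had null above wild type without overlap.

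At 8 h the picture was the same gene by gene but not probe set by probe set. None of the 38 genes was called through its brightest probe set, where 3.0% of all genes tested were, and 5 had an unadjusted p below 0.05. The median difference was -0.000359 (-0.01 over all genes), 19 differences were positive and 19 negative, and 33 intervals lay within 1.5-fold. The groups did not overlap for 11 genes, 8 with null above wild type and 3 below, against 24.8% of all genes tested. Of the 12002 genes tested, 1343 had null above wild type without overlap and 1639 below. Among all 73 probe sets, 5 were called, all higher in null glands, where 3.07% of all probe sets tested were called and 1.54% were called higher: 3 of Hmgcs1, 1 of Scd1 and 1 of Elovl5.

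**Figure D2:**
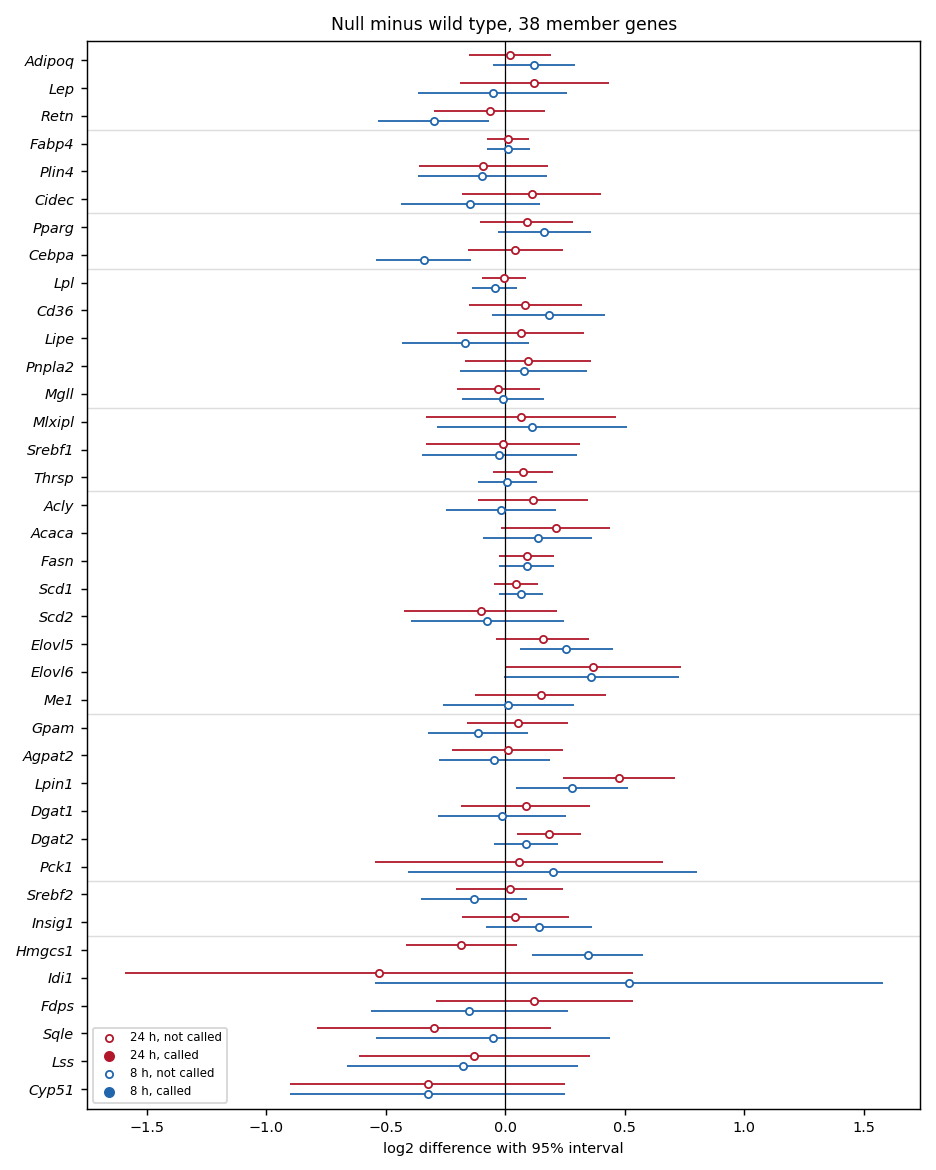
Log2 difference, null minus wild type, at 24 h and at 8 h for each of the 38 genes, with 95% intervals (3 arrays per group). All symbols are open since no gene was called at either time, and most intervals lie within 1.5-fold of no difference.

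Adipokine and lipid droplet genes gave small differences between genotypes at both times. The 3 adipokine genes ran from -0.07 (Retn) to 0.12 (Lep) at 24 h and from -0.30 (Retn) to 0.12 (Adipoq) at 8 h. Retn encodes resistin, and its 8 h values were 13.79, 13.36 and 13.52 in null pools against 13.80, 13.95 and 13.83 in wild type pools, with all null pools below the wild type ones (adjusted p = 0.19). Fabp4, Plin4 and Cidec, whose products bind fatty acids or coat and enlarge lipid droplets, ran from -0.09 to 0.11 at 24 h and from -0.15 to 0.01 at 8 h. The 3 dimmer Fabp4 probe sets gave 0.44 (1424155_at, adjusted p = 0.19), 0.03 (1451263_a_at) and 0.05 (1425809_at) at 8 h, and -0.02, 0.03 and -0.24 at 24 h, none called.

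Of the adipocyte transcription factors, Pparg read 10.92, 10.88 and 10.84 in null and 10.60, 10.98 and 10.79 in wild type pools at 24 h, and 11.22, 11.09 and 11.16 in null and 10.99, 10.92 and 11.07 in wild type pools at 8 h. The genotypes overlapped at 24 h and not at 8 h, where the difference was 0.16 ± 0.09 (SE, adjusted p = 0.42). Cebpa, whose product keeps mature adipocytes sensitive to insulin, had a difference of the opposite sign at 8 h, averaging 11.69 ± 0.16 in null and 12.04 ± 0.10 in wild type glands (SD, n = 3 each), a difference of -0.34 with an adjusted p of 0.0715. At 24 h Cebpa read 11.99, 11.99 and 12.01 in null pools against 11.87, 12.11 and 11.88 in wild type pools. Uptake and lipolysis genes (Lpl, Cd36, Lipe, Pnpla2 and Mgll) had differences between -0.03 and 0.10 at 24 h and between -0.17 and 0.18 at 8 h, none called. The dimmer Lpl probe set (1431056_a_at) gave -0.10 at 24 h and -0.15 at 8 h, not called either. Srebf1, Mlxipl and Thrsp, the lipogenic regulators, had differences between -0.01 and 0.07 at 24 h and between -0.02 and 0.11 at 8 h. The dimmer Thrsp probe sets gave 0.20 (1422973_a_at) and 0.27 (1444166_at) at 24 h and 0.09 and -0.15 at 8 h, none called.

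The fatty acid synthesis genes mostly had higher values in null glands, without passing the test through their brightest probe sets. Acly, Acaca and Fasn build palmitate from citrate, Me1 supplies NADPH, Elovl5 and Elovl6 lengthen the chain, and Scd1 and Scd2 introduce a double bond. Of these 8 genes, 7 had a positive difference at 24 h and 6 at 8 h, with medians of 0.13 and 0.08. Fasn read 14.14, 14.12 and 14.03 in null pools against 14.03, 13.97 and 14.02 in wild type pools at 24 h, and 14.20, 14.09 and 14.12 in null pools against 14.06, 14.09 and 13.99 in wild type pools at 8 h. Fasn groups overlapped at 24 h, and at 8 h the lowest null and the highest wild type value were equal to 2 decimals. Its differences were 0.09 at both times (adjusted p = 0.50 and 0.46). Elovl6 had the largest difference of the 8, 0.37 at 24 h (adjusted p = 0.37) and 0.36 at 8 h (adjusted p = 0.33).

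Scd1, the main stearoyl-CoA desaturase of mouse fat, had a bright and a dim probe set that gave different results. The bright one read 14.68, 14.67 and 14.62 in null and 14.59, 14.62 and 14.62 in wild type pools at 24 h, and 14.63, 14.64 and 14.68 in null and 14.59, 14.60 and 14.56 in wild type pools at 8 h. The dim one (1415965_at) read 12.57, 12.49 and 12.33 in null pools against 11.98, 12.13 and 11.57 in wild type pools at 8 h, all null pools above all wild type pools. That difference of 0.57 was called (1.49-fold, SE 0.14, 95% interval 0.27 to 0.87, adjusted p = 0.049), while the bright probe set gave 0.07 (adjusted p = 0.49). With 1 array left out the call disappeared in 10 of 12 fits, with adjusted p up to 0.158 (without null pool 2 at 8 h); it remained without null pool 3 at 24 h and without wild type pool 2 at 8 h. At 24 h the dim probe set gave 0.33 with an adjusted p of 0.32.

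Elovl5, which lengthens polyunsaturated fatty acids, was also called through a probe set other than its brightest. The dimmer one (1415840_at) read 11.95, 11.90 and 11.93 in null pools against 11.73, 11.68 and 11.61 in wild type pools at 8 h. These groups did not overlap, and the difference was 0.25 (1.19-fold, SE 0.06, adjusted p = 0.045), with 0.26 for the brightest probe set (adjusted p = 0.18). Leaving out 1 array lost the call in 10 of 12 fits, with adjusted p up to 0.140 (without wild type pool 2 at 8 h); it remained without wild type pool 2 or 3 at 24 h.

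In triglyceride assembly Gpam catalyses the first acylation, Agpat2 the next, Lpin1 removes the phosphate, Dgat1 and Dgat2 add the last fatty acid, and Pck1 supplies the glycerol backbone when glucose is scarce. All 6 differences were positive at 24 h (median 0.07), and 3 were at 8 h. Lpin1 had the largest positive difference of the 38 genes at 24 h, reading 11.72, 11.83 and 11.54 in null pools against 11.19, 11.46 and 11.01 in wild type pools. All null pools lay above all wild type pools, and the difference was 0.48 (1.39-fold, SE 0.11, 95% interval 0.24 to 0.71) with an adjusted p of 0.063. Its second probe set gave 0.41 (adjusted p = 0.175). Of the fits that left out 1 array, only that without wild type pool 2 at 24 h called Lpin1 at 24 h (adjusted p = 0.0083). At 8 h Lpin1 differed by 0.28 (adjusted p = 0.23), and Dgat2 differed by 0.18 at 24 h (adjusted p = 0.22).

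Among the sterol genes, every probe set called in any comparison was one of Hmgcs1. It encodes the cytosolic HMG-CoA synthase of the sterol pathway, a textbook target of SREBP-2. The 250 bases before the RefSeq start of Hmgcs1 (GRCm38.p6, chr13:119690101-119690350, plus strand) are shown because they hold the sterol element searched for. Capitals mark matches to the sterol regulatory element consensus TCACNCCAC, 137 bases before the start, and to the CCAAT box, which is read on the other strand as ATTGG at 237, 176 and 45 bases before the start.
Hmgcs1: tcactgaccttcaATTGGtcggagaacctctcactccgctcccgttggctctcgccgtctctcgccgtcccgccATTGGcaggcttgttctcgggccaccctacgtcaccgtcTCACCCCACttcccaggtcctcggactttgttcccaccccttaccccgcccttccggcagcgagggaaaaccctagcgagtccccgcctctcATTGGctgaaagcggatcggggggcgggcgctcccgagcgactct
The sterol element consensus was found on either strand in 1.05% of 32851 mouse promoter windows of this length, and CCAAT in 33.85%. Promoters were at hand for 32 of the 40 listed genes, 42 windows in all, and besides Hmgcs1 only Mlxipl held the sterol element. The E-box CACGTG occurred in 5 of the 42 windows (6.02% of all windows) and the receptor palindrome core ACANNNTGT in 1, that of Lipe (5.84% of all windows). The matches overlapped with no other motif in Hmgcs1, and they describe letters, not binding.

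All 5 tested Hmgcs1 probe sets averaged higher in null than in wild type glands at 8 h. The brightest (1433444_at) read 12.06, 12.45 and 12.34 in null pools against 11.91, 11.93 and 11.98 in wild type pools at 8 h, and 11.81, 11.46 and 11.69 in null pools against 11.79, 11.83 and 11.88 in wild type pools at 24 h. Null pools thus lay above wild type ones at 8 h without overlap and overlapped with them at 24 h. The brightest probe set itself was not called at 8 h (difference 0.35, SE 0.11, adjusted p = 0.12; 0.033 without null pool 1 at 8 h).

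The other Hmgcs1 probe sets gave larger differences at 8 h. That of 1433443_a_at was 0.55 (1.46-fold, SE 0.09, adjusted p = 0.0093), and it remained called in all 12 fits that left out 1 array, with adjusted p up to 0.048. For 1433446_at the difference was 0.53 (adjusted p = 0.049) and for 1433445_x_at 0.43 (adjusted p = 0.034), but these calls were lost in 10 and 5 of the 12 fits. For 1433445_x_at those were the fits without any 1 of the 3 wild type pools or of null pools 2 and 3 at 8 h, and 1433446_at kept its call only without null pool 1 or 2 at 24 h. The faintest, 1441536_at, gave 0.57 with an adjusted p of 0.27. All 5 differences were negative at 24 h, between -0.21 and -0.10, and none was called. These probe sets report on 1 gene and may share probes, so they are not independent measurements.

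**Figure D3:**
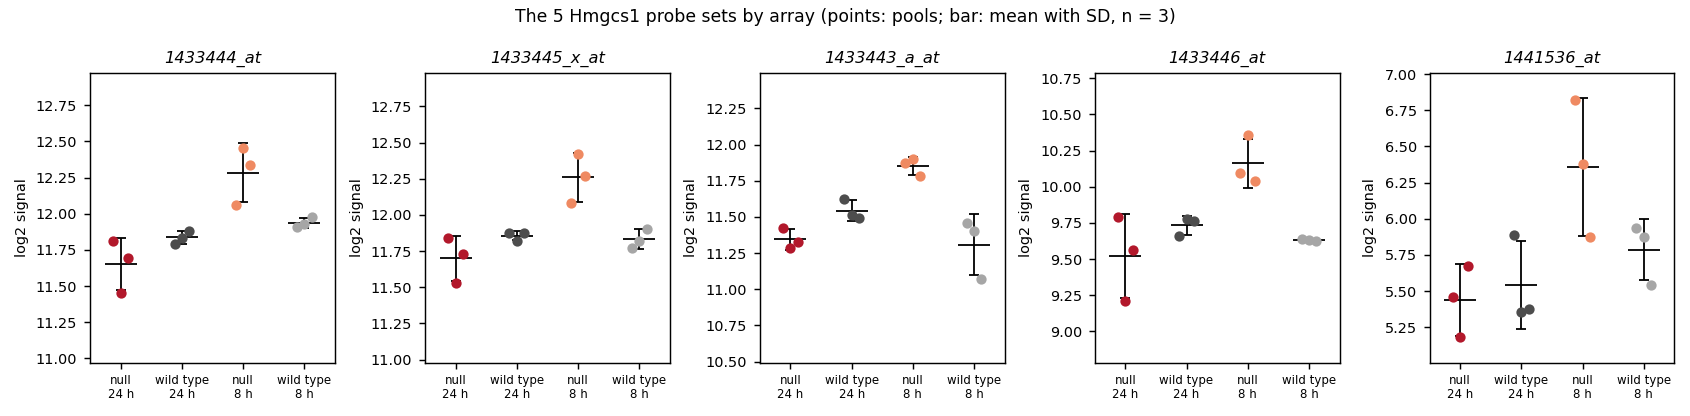
Log2 signal of the 5 tested Hmgcs1 probe sets on each array, by group, with group means and SD as bars (3 arrays per group). In the 4 brighter probe sets the 3 null pools at 8 h are the highest, and in the null glands they lie above the 24 h pools in all 5.

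The remaining sterol enzymes spread more within groups and none was called between genotypes. With Hmgcs1, 5 of the 6 enzymes had negative differences at 24 h (median -0.24) and 4 of 6 at 8 h (median -0.10). Idi1 (isopentenyl diphosphate isomerase) spanned 3.83-fold over the 12 arrays, with null pool 2 at 8 h at 11.47 and wild type pool 3 at 24 h at 11.46 as the highest, so its high values were not bound to 1 group. Sqle, Cyp51 and Lss, later enzymes of the pathway, shared the same 3 highest arrays, namely null pool 1 and wild type pools 1 and 2, all at 8 h. Their ranges were 2.20-fold, 2.37-fold and 1.77-fold. Srebf2 and Insig1, which encode the sterol-regulated transcription factor SREBP-2 and its anchor, differed between genotypes by 0.02 and 0.04 at 24 h and by -0.13 and 0.14 at 8 h.

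Most of the genes had slightly lower values at 24 h than at 8 h in both genotypes, and few passed the test. In null glands 2 of 38 genes were called, both lower at 24 h (Gpam and Hmgcs1), where 4.57% of all genes tested were called and 3.83% were called lower. In wild type glands 1 gene was called, Gpam, lower at 24 h, where 5.27% of all genes were called and 3.82% were called lower. Among the 73 probe sets, 6 were called in null glands, all lower at 24 h (4.4% of all probe sets called, 3.59% lower), and 1 in wild type glands (5.22% called). Of the 6, 4 were probe sets of Hmgcs1, which report on 1 gene. The difference, 24 h minus 8 h, was negative for 29 of 38 genes in null and 33 of 38 in wild type glands, with medians of -0.06 (-0.02 over all genes) and -0.11 (-0.01 over all genes). It ran from -0.83 (Idi1) to 0.30 (Cebpa) in null and from -0.59 (Gpam) to 0.21 (Idi1) in wild type glands. For the 6 sterol enzymes the median was -0.56 in null and -0.14 in wild type glands, with 5 negative and 1 positive in each. The groups did not overlap for 14 genes in null glands, 11 of them lower at 24 h (26.4% of all genes in either direction). They did not for 6 genes in wild type glands, all lower (26.2% of all genes in either direction). Of the 12002 genes tested, 2121 in null and 1934 in wild type glands were lower at 24 h without overlap.

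The labels do not say whether arrays of the same replicate number belong together. With that number as a block in the fit, 4 genes were called over time in null glands. Hmgcs1 (adjusted p = 0.013), Gpam (0.0080) and Mlxipl (0.042) were lower at 24 h and Cebpa (0.043) was higher.

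**Figure D4:**
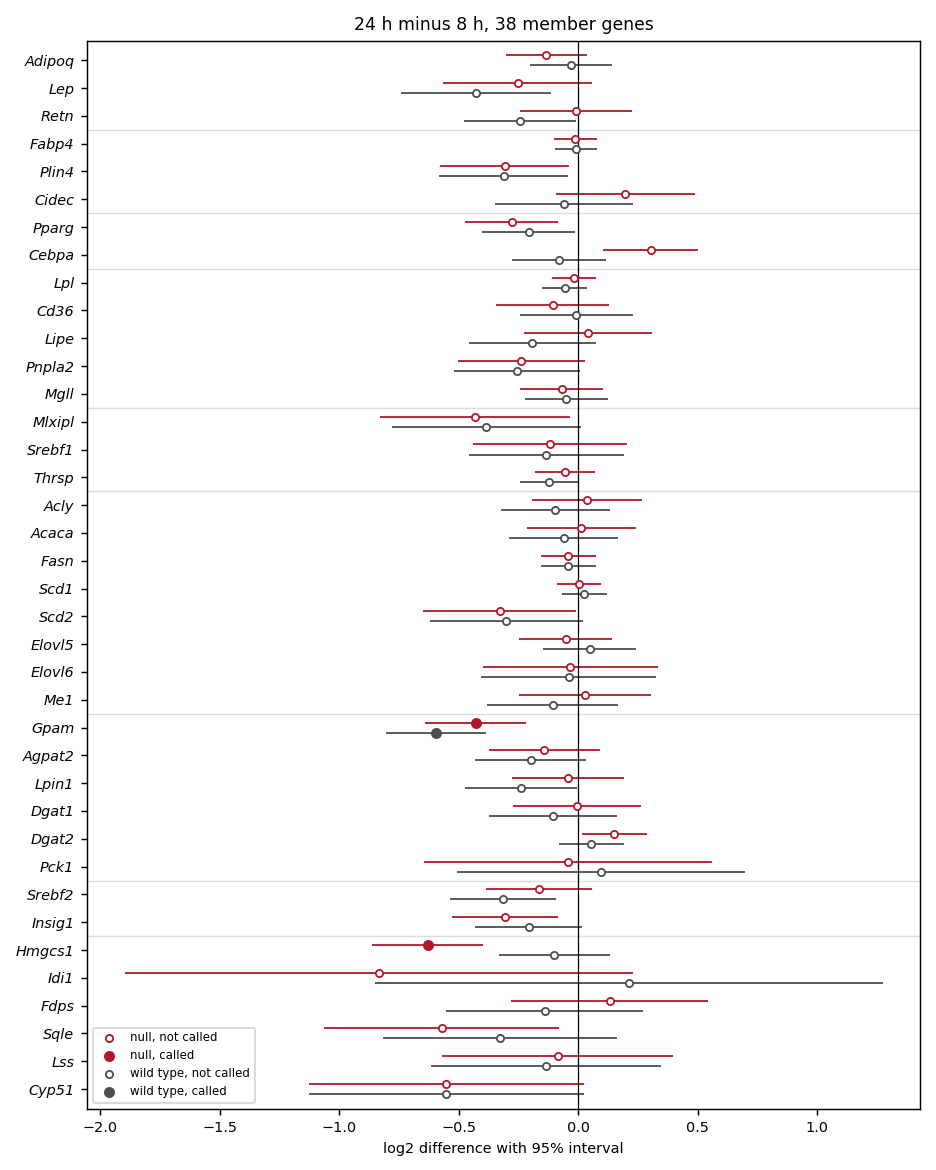
Log2 difference, 24 h minus 8 h, in null and in wild type glands for each of the 38 genes, with 95% intervals (3 arrays per group; filled symbols passed the test). Most symbols lie left of 0 in both genotypes, and the filled ones are Gpam in both and Hmgcs1 in null glands.

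Gpam was lower at 24 h in both genotypes. It encodes the mitochondrial glycerol-3-phosphate acyltransferase, which commits fatty acids to glycerolipid, and it is a known SREBP-1c target. It read 12.42, 12.24 and 12.25 in null pools at 24 h against 12.92, 12.59 and 12.69 in null pools at 8 h, and 12.35, 12.24 and 12.17 in wild type pools at 24 h against 12.92, 12.91 and 12.71 in wild type pools at 8 h. In each genotype all pools at 24 h lay below all pools at 8 h. The fall was -0.43 in null glands (1.35-fold, SE 0.10, 95% interval -0.64 to -0.22, adjusted p = 0.032) and -0.59 in wild type glands (1.51-fold, SE 0.10, 95% interval -0.81 to -0.38, adjusted p = 0.0081). These falls did not differ detectably (interaction 0.17, 95% interval -0.13 to 0.46, adjusted p = 1.0), and the genotypes differed by 0.05 at 24 h and -0.11 at 8 h.

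The wild type call for Gpam remained in all 12 fits that left out 1 array (adjusted p up to 0.047). The null call was lost without null pool 1 at 8 h (adjusted p = 0.068), null pool 3 at 8 h (0.087), null pool 2 at 24 h (0.122) or null pool 3 at 24 h (0.085), with quantile normalization (0.063) and in a fit of the null arrays alone (0.087). A faint second Gpam probe set, near the array median, gave -0.23 in null and -0.51 in wild type glands, neither called.

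RefSeq places 2 Gpam starts on the minus strand of chromosome 19. The 250 bases before each are given, at chr19:55099478-55099727 and chr19:55127239-55127488 (GRCm38.p6, minus strand, 5′ to 3′), since Gpam was the gene called in both genotypes. Neither held the sterol element, the E-box or the receptor core on either strand, which says only that these letters are not in these windows. Capitals in the second mark a CCAAT box read as ATTGG, 74 bases before the start.
Gpam, start 1: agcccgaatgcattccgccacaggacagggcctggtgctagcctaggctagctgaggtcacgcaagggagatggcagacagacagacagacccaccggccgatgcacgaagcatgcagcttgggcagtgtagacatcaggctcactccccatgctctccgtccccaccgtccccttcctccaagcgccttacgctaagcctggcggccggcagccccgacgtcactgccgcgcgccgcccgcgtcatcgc
Gpam, start 2: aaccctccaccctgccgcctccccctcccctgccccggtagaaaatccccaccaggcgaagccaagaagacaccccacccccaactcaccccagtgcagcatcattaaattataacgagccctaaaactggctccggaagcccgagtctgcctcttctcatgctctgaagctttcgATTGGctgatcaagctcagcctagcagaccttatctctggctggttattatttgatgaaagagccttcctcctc

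Hmgcs1 was lower at 24 h in null glands and showed little difference in wild type glands. The values given above for its brightest probe set averaged 11.65 ± 0.18 at 24 h and 12.28 ± 0.20 at 8 h in null glands, and 11.84 ± 0.04 at 24 h and 11.94 ± 0.04 at 8 h in wild type glands (SD, n = 3 each). The difference was -0.63 in null glands (1.55-fold, SE 0.11, 95% interval -0.86 to -0.40, adjusted p = 0.010) and -0.10 in wild type glands (95% interval -0.33 to 0.13, adjusted p = 0.63). Pools at 24 h lay below those at 8 h without overlap in both genotypes. In null glands 4 of the 5 probe sets were called, with differences from -0.64 to -0.51, and the faintest gave -0.92 (adjusted p = 0.052). The call of 1433443_a_at was lost without pool 2 of either time (adjusted p up to 0.068), and that of 1433446_at without pool 2 of either time or pool 3 at 8 h (up to 0.0781). In wild type glands the 5 differences ran from -0.24 to 0.23, none called.

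The null call of the brightest Hmgcs1 probe set was lost without null pool 3 at 8 h (adjusted p = 0.053) and in a fit of the null arrays alone (0.065). Whether the time difference itself differed between genotypes was tested by the interaction, which was -0.53 for the brightest probe set (95% interval -0.86 to -0.20, adjusted p = 0.39) and -0.74 for 1433443_a_at (95% interval -1.04 to -0.45, adjusted p = 0.083). With the replicate number as a block 1433443_a_at had an adjusted p of 0.045. None of the 38 genes and none of the 73 probe sets was called for the interaction, where 0.133% of genes and 0.143% of probe sets were, and 2 genes, Hmgcs1 and Cebpa, had an unadjusted p below 0.05.

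Other members with an unadjusted p below 0.05 in null glands over time were Cebpa and Dgat2, higher in value at 24 h, and Insig1, Mlxipl, Plin4, Pparg, Scd2 and Sqle, lower in value at 24 h. Cebpa read 11.99, 11.99 and 12.01 at 24 h against 11.81, 11.76 and 11.51 at 8 h in null pools, a difference of 0.30 with an adjusted p of 0.081. In wild type glands its difference was -0.08, and the interaction was 0.38 (95% interval 0.10 to 0.66, adjusted p = 0.54). Mlxipl encodes ChREBP and had differences of -0.43 in null and -0.38 in wild type glands (adjusted p = 0.20 and 0.25). Pparg had differences of -0.28 and -0.21 (adjusted p = 0.10 and 0.21) and Plin4 of -0.31 in both genotypes (adjusted p = 0.18 and 0.17).

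In wild type glands Lep, Lpin1, Plin4, Pparg, Retn and Srebf2 had an unadjusted p below 0.05 besides Gpam, all with lower values at 24 h. Lep encodes leptin, the hormone that reports fat stores. It read 10.87, 11.52 and 11.03 at 24 h against 11.31, 11.53 and 11.35 at 8 h in null pools, and 11.01, 10.88 and 11.18 at 24 h against 11.46, 11.51 and 11.37 at 8 h in wild type pools. The times overlapped in null and not in wild type glands, with differences of -0.25 (adjusted p = 0.34) and -0.43 (adjusted p = 0.11). Among fatty acid synthesis genes the differences over time ran from -0.33 (Scd2) to 0.04 (Acly) in null glands and from -0.30 (Scd2) to 0.05 (Elovl5) in wild type glands. The dimmer Elovl5 probe set was lower at 24 h in null glands (-0.34, SE 0.06, adjusted p = 0.012, 0.056 without null pool 3 at 8 h) and gave -0.16 in wild type glands (adjusted p = 0.15).

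Adipoq, Fabp4, Lpl, Thrsp, Fasn and Scd1, with probe sets near the ceiling, had differences over time between -0.13 and 0.03 in both genotypes. Some dimmer probe sets differed more, none called. That of Scd1 gave -0.22 in null and 0.02 in wild type glands. Fabp4 1425809_at averaged 10.86 at 24 h and 11.23 at 8 h in null glands, and 1424155_at 12.16 and 11.88 in wild type glands. Thrsp 1444166_at averaged 7.12 and 6.71 in null glands. The remaining gaps of the dimmer Fabp4 and Thrsp probe sets were smaller. The dimmer Lpl probe set gave -0.19 in null and -0.24 in wild type glands (adjusted p = 0.13 and 0.064), and the times did not overlap in either genotype. Lpl encodes lipoprotein lipase, which frees fatty acids from circulating triglyceride.

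Of 83 further genes of adipocyte biology and of fatty acid and sterol synthesis, chosen with earlier results of these data known, 72 were named here and 68 were tested. Among 25 other adipocyte genes, 0 were called between genotypes at 24 h, and 2 were lower in null glands at 8 h: Klf15, a transcription factor induced by glucocorticoids and fasting (8.81 and 9.35, difference -0.54, adjusted p = 0.025), and Rxra, the nuclear receptor partner of PPARγ (8.62 and 9.01, -0.39, adjusted p = 0.020). Over time in null glands Klf15 (0.70, adjusted p = 0.0083) and Acvr1c (0.67, adjusted p = 0.039), an activin-type receptor of adipocytes, were higher at 24 h and Cebpb, an early adipogenic factor, was lower (-0.69, adjusted p = 0.0064). In wild type glands Cebpb (-0.62, adjusted p = 0.0098), Pnpla3 (-0.999, adjusted p = 0.047) and Fabp5 (-0.38, adjusted p = 0.014) were lower at 24 h.

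Of 22 other fatty acid and triglyceride synthesis genes, 1 was called, in both time comparisons. This was Fads1, the delta-5 desaturase, which was lower at 24 h in null (9.34 and 9.94, -0.59, adjusted p = 0.0093) and in wild type glands (9.59 and 10.09, -0.50, adjusted p = 0.017). Between genotypes at 24 h, 8 of the 22 had an unadjusted p below 0.05, against 1658 of all 12002 genes tested. At 8 h 4 did, against 1951. The differences at 24 h ran from -0.56 (Fads2) to 1.32 (Elovl3), with 14 positive and 8 negative. Of 21 other sterol synthesis and uptake genes none was called in any of the 5 comparisons, and 2 or 3 had an unadjusted p below 0.05 in each comparison but the interaction, where 1 did. Their median differences ran from -0.09 (time in null glands) to 0.01 (genotype at 8 h).

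Markers of some other cell types differed in the comparisons, and their part in the results was not tested. The summed signal of 9 epithelial markers (log2) lay between 12.52 and 12.78 in null and between 12.82 and 13.35 in wild type glands at 24 h, without overlap, and between 12.93 and 13.14 in null and 12.66 and 12.92 in wild type glands at 8 h, again without overlap and the other way round. At 24 h Cdh1, Cldn3, Cldn7 and Esrp1 were called lower in null glands (-1.19 to -0.86), at 8 h Krt8 and Krt18 were called higher (0.80 and 0.39), and over time Cdh1, Cldn7 and Esrp1 were called lower at 24 h in null glands while Krt8 and Cldn3 were called higher in wild type glands. The higher sum in null glands at 8 h was not shared by most markers: 6 of the 9 differences were negative (median -0.04), down to -0.43 for Cldn3 (adjusted p = 0.081).

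The sum of 8 brown adipocyte markers lay between 14.08 and 14.71 in null and between 13.18 and 14.32 in wild type glands at 24 h, and between 13.94 and 14.63 in null and 12.85 and 13.51 in wild type glands at 8 h. The groups overlapped at 24 h and not at 8 h, where Ucp1 (1.97) and Cidea (1.66) were called higher in null glands. Of the 8 differences at 8 h, 6 were positive and 2 negative, down to -0.64 for Dio2. Brown adipocytes share many of the genes described here with white ones. The sum of 8 skeletal muscle markers lay between 12.30 and 14.17 in null and 13.87 and 16.21 in wild type glands at 24 h. At 8 h it lay between 9.85 and 14.32 in null and 13.96 and 15.28 in wild type glands. The genotypes overlapped at both times and 0 of 8 markers were called. All 8 differences were nevertheless negative at both times, with medians of -1.84 at 24 h and -2.14 at 8 h. Their intervals were wide (median half-width 2.30), and all 8 reached 2-fold at both times. The null pool with the least muscle signal, pool 2 at 8 h, was also the highest for the brightest Hmgcs1 probe set and for Idi1. Without it, 2 of the 4 Hmgcs1 probe sets called lower at 24 h in null glands were still called (1433444_at and 1433445_x_at, adjusted p = 0.039 each) and 2 were not (1433443_a_at, 0.059, and 1433446_at, 0.078). At 8 h the genotype call of 1433443_a_at remained (0.048), and those of 1433445_x_at (0.143) and 1433446_at (0.203) were lost. Leaving out a pool also leaves fewer arrays, and the part of the muscle signal in these calls was not tested.

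Of the remaining lists, 2 of 5 endothelial markers (Pecam1 and Kdr) were called lower at 24 h in null glands, and none of 6 macrophage, 3 lymphocyte and 5 fibroblast markers was called in any comparison. The sum of the 3 adipokine genes lay between 14.89 and 15.15 on all 12 arrays. The sum of the 6 sterol enzymes lay between 12.53 and 12.63 in null and 12.56 and 13.09 in wild type glands at 24 h, and between 12.92 and 13.35 in null and 12.76 and 12.99 in wild type glands at 8 h.

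**Figure D5:**
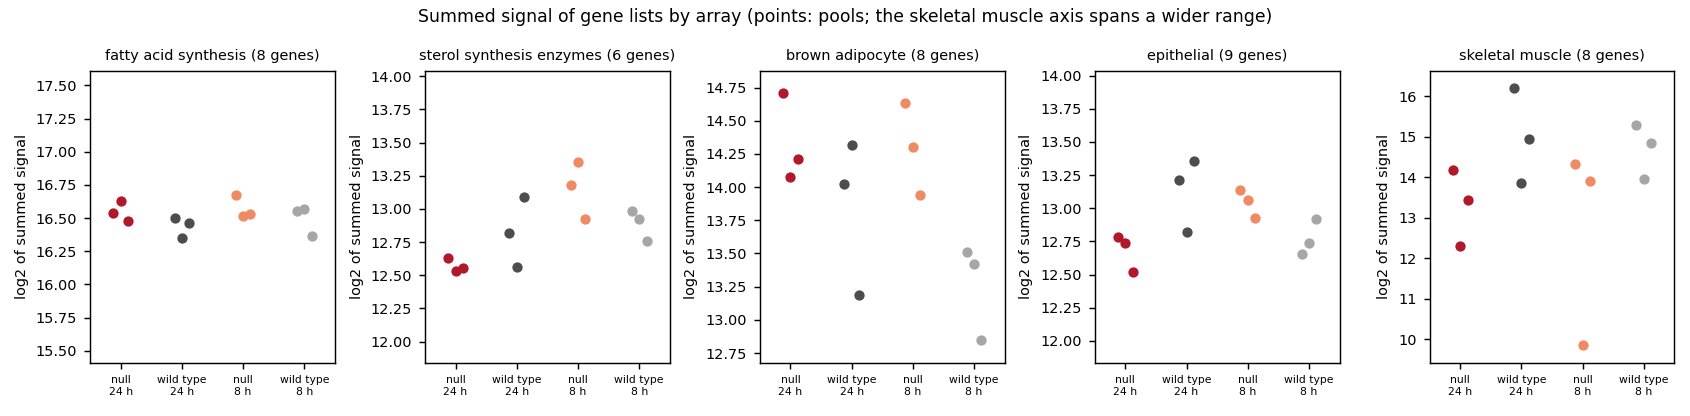
Log2 of the summed signal of gene lists on each array, by group (points are pools, 3 per group; the muscle panel has a wider axis). Fatty acid synthesis sums lie between 16.35 and 16.67, epithelial sums separate the genotypes in opposite directions at 24 h and 8 h, and muscle sums scatter from 9.85 to 16.21.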

How the data were processed

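Biotin-labelled RNA from 12 pools of mouse mammary gland was hybridised to Affymetrix arrays, 3 pools of 3 mice in each of 4 groups. The authors deposited log2 values, 1 per probe set and array, a scale judged from their range (2.22 to 14.68). MAS5 is listed per the submitters' processing notes, without its role. How the authors made the log2 values, normalization included, is not given in the sources used here, and the deposited values were not normalized again. GEO's platform annotation named 34945 of 45037 non-control probe sets with 1 symbol, 932 with several (not used) and 9160 with none.

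Probe sets with values over the median of their array on 3 or more arrays (23709) were fitted over all 4 groups with limma 3.58.1 in R 4.3.3 (trended empirical Bayes, 8 residual degrees of freedom). Genotype at each time, time in each genotype and their interaction were tested, all two-sided, with Benjamini-Hochberg adjustment over the 23709 at 0.05. Genes are represented by the probe set with the highest mean. Intervals are unadjusted 95% intervals, and p-values measure the spread between pools, whose number limits the precision. The scripts were tested on simulated data.

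Members and lists were chosen with earlier results of these data known. All members were described by role. Values by array were given for called members and for Adipoq, Fabp4, Pparg, Fasn, Scd1 and Hmgcs1, and at most 4 called pathway genes were named per comparison and direction. Retn, Cebpa, Lpin1, Lep and the dimmer probe sets were chosen for detail after their values were seen.

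In null glands, same-numbered pools at 24 h and 8 h were correlated once group means were removed (r = 0.52, 0.26 and 0.38). In wild type glands r was 0.45, -0.01 and 0.02. These values and the labels do not establish a pairing. The main fit used no block, and the replicate block was only an alternative. Promoters are RefSeq's (GRCm38.p6). Alternatives were other filters, quantile normalization, median centring, a robust prior, only the groups compared, 1 probe set per gene, a replicate block, array weights, a floor and leaving out each array.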

Additional observations from a re-analysis of the deposited data

How the results depend on the processing

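None of the values of the 38 genes or their probe sets reversed a called direction. Of 1283 values of named probe sets under the alternatives, 1212 stayed on their side of the threshold, 61 lost and 10 gained a call, and 39 uncalled values changed sign. With the replicate block, 1 gene was called between genotypes at 24 h (Lpin1, adjusted p = 0.028), 1 at 8 h (Cebpa, 0.035), 4 over time in null and 2 over time in wild type glands (Gpam and Srebf2). Outside time in null glands same-numbered pools had r between -0.04 and 0.45, a range that overlaps the values in null glands. The labels state no pairing. With array weights 1 gene was called at 24 h, 7 at 8 h, 10 over time in null glands and 1 for the interaction (Hmgcs1, adjusted p = 0.031), where the median became 0.14. The shares of all genes called with the block or the weights are not given here. These counts are therefore not read as a result about the 38 genes. In a fit of the null arrays alone 0 were called over time. The cause of these shifts was not tested. Leaving out 1 array gave 0 to 1 calls at 24 h, 0 to 1 at 8 h, 0 for the interaction, 0 to 3 over time in null glands and 1 to 3 over time in wild type glands. The medians then ran from 0.0076 to 0.070 at 24 h, -0.048 to 0.054 at 8 h, -0.0067 to 0.10 for the interaction, -0.10 to -0.023 over time in null and -0.19 to -0.079 in wild type glands. Probe sets near the ceiling of the arrays and groups of 3 pools limit what could be detected.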

Other observations

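The 3 Scd2 probe sets disagreed in size. Scd2 encodes a stearoyl-CoA desaturase. One of them (1415824_at) read 5.75, 8.49 and 7.38 in null pools against 10.71, 8.88 and 9.71 in wild type pools at 24 h, and 9.29, 8.92 and 8.25 in null pools against 10.92, 11.09 and 9.94 in wild type pools at 8 h. Its differences were -2.56 and -1.83 (limma, adjusted p = 0.089 and 0.17), without overlap between genotypes at either time. The brightest Scd2 probe set gave -0.10 and -0.07. This probe set was chosen after its values were seen.

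Fasn, Acaca and Elovl6 shared their 3 lowest arrays, wild type pools 2 and 3 at 24 h and wild type pool 3 at 8 h. Pck1 spanned 1.89-fold over the 12 arrays, with its 3 highest arrays in 3 different groups.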
